A study of Mus musculus with 48 samples.

Results

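The genes followed here encode receptors with which microglia bind dying cells and antibody-coated particles: the TAM receptors Axl and Mertk with their ligands Gas6 and Pros1, the receptor Trem2 with its adaptor Tyrobp, and the Fc gamma receptors Fcgr1, Fcgr2b and Fcgr3 with their signalling chain Fcer1g. They were taken by gene symbol from the deposited table, which lists 48526 genes, and each of the 10 symbols matched 1 gene. All 10 passed the filter on low values and were among the 9482 genes tested. The study sequenced RNA in bulk from hippocampal microglia of juvenile C57BL/6 mice that had received a single 8 Gy dose of whole brain irradiation, or a sham procedure, on postnatal day 21. Tissue was collected 2 h, 6 h, 1 day or 1 week later, with 6 sham and 6 irradiated animals at each time and 1 library per animal, 48 libraries in all. All animals were perfused, and their hippocampal cells were released with enzymes and sorted on Cx3cr1, a chemokine receptor of microglia that border macrophages and some monocytes also carry. The labels name no transgene. Time after irradiation, age of the animal and the day of preparation cannot be told apart from one another, and in bulk RNA fewer cells of a type and less RNA per cell cannot be told apart either.

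Axl and Mertk are receptor tyrosine kinases that recognise phosphatidylserine on dying cells through bridging proteins. Gas6 bridges to both, and protein S, the product of Pros1, to Mertk. Mertk is known as the receptor of resting phagocytes and Axl as a receptor that inflammatory signals induce. Trem2 binds lipids and lipoproteins and signals through Tyrobp, an adaptor with an activating tyrosine motif. Fcgr1 and Fcgr3 bind the constant part of IgG and activate the cell through the gamma chain encoded by Fcer1g, whereas Fcgr2b carries an inhibitory motif and restrains the activating receptors.

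The stretch before the transcription start is shown for Axl and Mertk, whose levels moved in opposite directions, and for Pros1 and Fcgr1, the members with a gamma-activated site motif. RefSeq windows on GRCm38.p6 were at hand for 9 of the 10 members (10 windows, since Fcgr3 has 2). The 250 bases before the start are printed 5′ to 3′ on the strand of the gene, for Axl chr7:25788734-25788983 (minus strand), Mertk chr2:128698665-128698914 (plus), Pros1 chr16:62854057-62854306 (plus) and Fcgr1 chr3:96293970-96294219 (minus). Capitals mark matches, on either strand, to 5 motifs searched: GAAA followed after 2 bases by GAAA (interferon response core), TTCNNNGAA (gamma-activated site), GAGGAA (PU box core), TGACGTCA (CRE) and GGGCGG (GC box); neighbouring matches can overlap.
Axl: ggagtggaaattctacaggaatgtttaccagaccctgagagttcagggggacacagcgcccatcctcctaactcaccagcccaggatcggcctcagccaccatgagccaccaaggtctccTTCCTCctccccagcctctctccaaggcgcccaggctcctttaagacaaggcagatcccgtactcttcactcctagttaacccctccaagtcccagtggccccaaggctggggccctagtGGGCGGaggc
Mertk: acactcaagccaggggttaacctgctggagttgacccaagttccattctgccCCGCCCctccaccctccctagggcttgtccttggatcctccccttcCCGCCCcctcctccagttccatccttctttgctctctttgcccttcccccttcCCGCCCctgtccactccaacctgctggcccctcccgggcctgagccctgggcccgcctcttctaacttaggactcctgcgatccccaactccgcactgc
Pros1: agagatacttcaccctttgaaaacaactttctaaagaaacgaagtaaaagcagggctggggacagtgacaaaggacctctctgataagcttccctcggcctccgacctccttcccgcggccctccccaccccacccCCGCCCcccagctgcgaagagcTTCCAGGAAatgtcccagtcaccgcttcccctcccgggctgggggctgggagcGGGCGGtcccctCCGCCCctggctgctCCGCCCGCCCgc
Fcgr1: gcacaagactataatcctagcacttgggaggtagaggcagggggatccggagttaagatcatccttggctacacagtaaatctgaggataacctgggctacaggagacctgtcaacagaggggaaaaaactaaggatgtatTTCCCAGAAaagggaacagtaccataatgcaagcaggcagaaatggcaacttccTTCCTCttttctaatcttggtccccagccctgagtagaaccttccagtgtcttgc
The GC box was found before Axl, Mertk, Gas6 and Pros1 and in 32.7% of 32841 mouse promoter windows of the same length. The PU box core stood before Axl, Trem2, Fcgr1 and Fcgr3 and in 23.3% of all windows. A gamma-activated site was matched before Pros1 and Fcgr1 and in 7.02% of windows. No member window held the interferon response core, present in 2.98% of all windows, or the CRE, present in 1.55%. These matches describe letters in a window and say nothing on binding.

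Levels are given as RPM, the reads of a gene per 1000000 reads on genes of its own library, recovered from the deposited values. Libraries held between 175382 and 3856777 reads on genes, and 3 of them lay under 1000000 (sham 1 day library 6, irradiated 2 h library 2 and sham 6 h library 4). Cdkn1a, the p53 target that arrests the cell cycle, followed the labels at every time, from 4.83 to 68.1 RPM in the 24 sham libraries and from 731 to 1937 RPM in the 24 irradiated ones. The 14 microglia markers summed to 33300 to 60430 RPM in every library, and all had reads in every group. The 14 monocyte and neutrophil markers summed to 3.26 to 110 RPM apart from irradiated 2 h library 2, at 2747 RPM (2734 of it from Fn1), and Ly6g and Retnlg had no read in any library. One structure touches the results at 6 h: in sham 6 h libraries 1 to 4, genes spanning over 50000 bases took 29.6% to 30.8% of the reads, against 24.9% and 25.3% in sham libraries 5 and 6 and 23.7% to 25.1% in the irradiated 6 h libraries. That share was not even at the other times either, with sham medians of 29.3% at 2 h, 25.6% at 1 day and 26.2% at 1 week. At 2 h it ran from 26.7% to 31.7% in sham and from 27.1% to 29.5% in irradiated libraries. For 6 h, each member is described against the whole sham group and then against sham libraries 5 and 6 only. For Fcgr1 and Fcgr3 the second description gives the levels and the call without a difference. Fits with libraries 5 and 6 only have fewer sham libraries and larger standard errors, so a call can be lost there without a smaller difference.

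Levels were also divided by the kilobases of annotated exon, with the exons of all annotated transcripts of a gene joined. That divisor was 667 bases for Tyrobp and 4946 for Trem2, so the order of genes depends on the annotation. On this scale Tyrobp had the highest median over the 24 sham libraries, 709.6 RPM per kilobase (342 to 1299). Fcgr3 had a median of 564, Fcer1g of 427, Fcgr1 of 244 and Mertk of 231. Below them came Trem2 at 109.9, Gas6 at 92.6, Fcgr2b at 56.6 and Pros1 at 52.0. Axl was the lowest of the 10, at 3.81 RPM per kilobase (1.86 to 7.93), and rested on 7 to 238 reads per library. The order at the top differed between sham times. At 2 h and 6 h the sham median of Fcgr3 (551.5 and 655 RPM per kilobase) lay above that of Tyrobp (381 and 633), whereas at 1 day and 1 week Tyrobp (1008 and 844.5) lay above Fcgr3 (617.5 and 549.8). Fcer1g, at 178 and 186 RPM per kilobase, stood below Mertk (341 and 337) and Fcgr1 (209 and 266) at the first 2 times and above both, at 596.5 and 504, at the later ones. Axl had the lowest sham median at each time. Mertk was thus the abundant TAM receptor of these sham microglia, and Tyro3, the remaining receptor of that family, had at most 4 reads in any library.

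**Figure D1:**
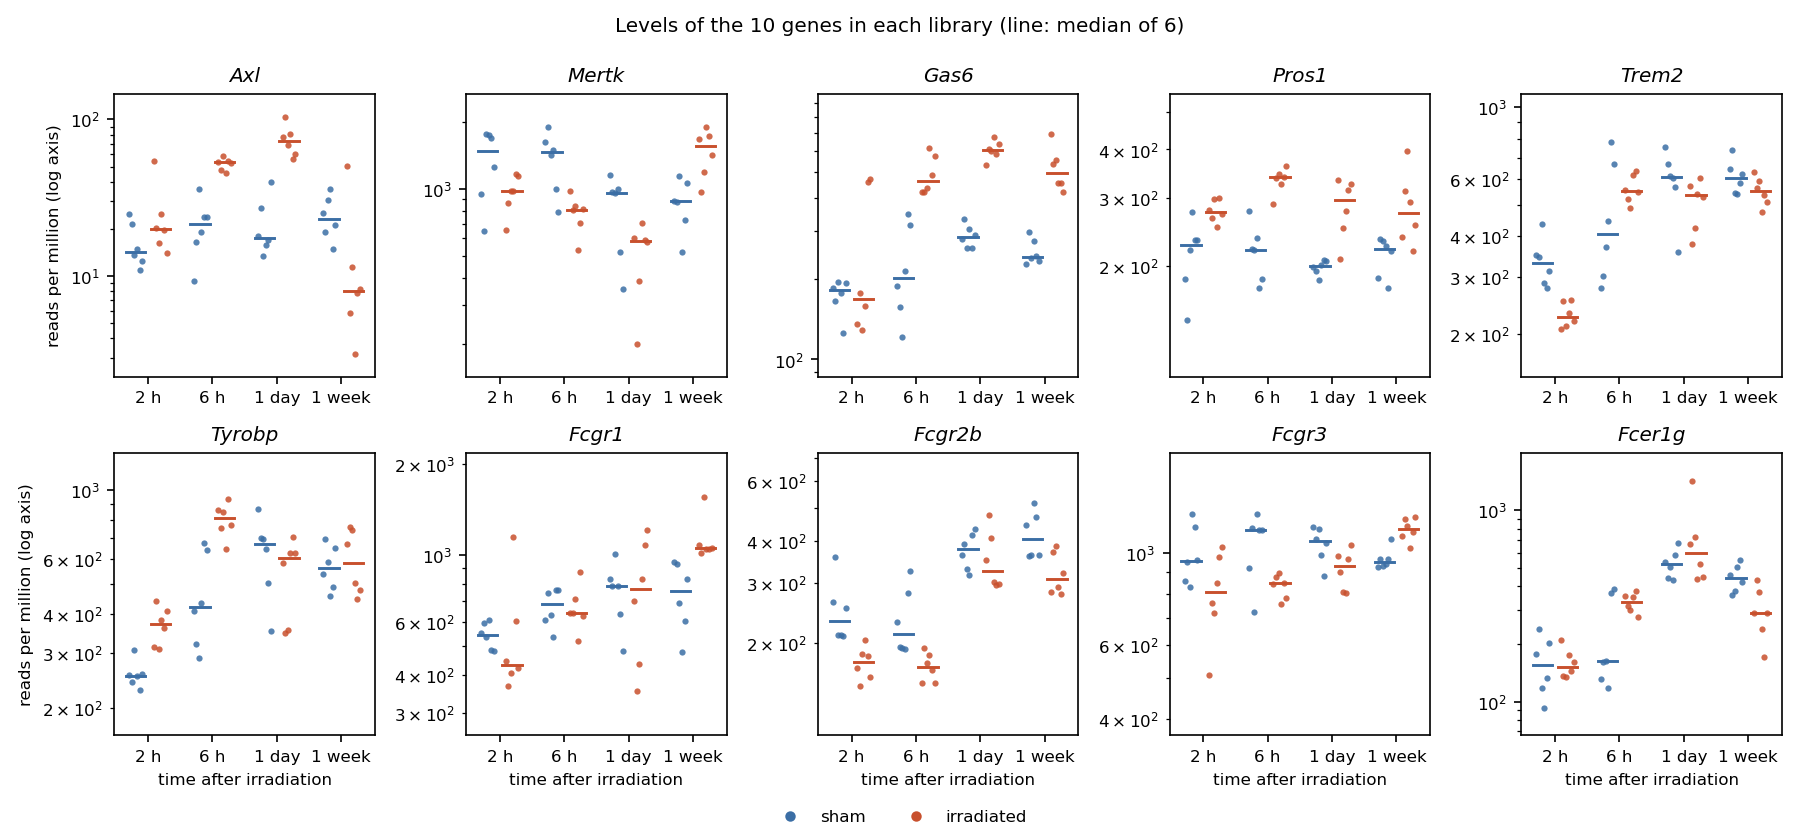
Level of each of the 10 genes in RPM (log axis, each panel with its own range) in every library, by time after irradiation; points are single animals in sham (blue) and irradiated (orange) groups of 6, and lines are group medians. Axl is higher in all irradiated libraries at 6 h and 1 day and lower in 5 of 6 at 1 week, and Gas6 is higher in all irradiated libraries from 6 h on.

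Differences are irradiated minus sham on log2(RPM + 2), with the standard error after ±, and adjusted p values are from limma with Benjamini-Hochberg adjustment over all 9482 genes, threshold 0.05. Folds are taken on the same scale and understate changes of low genes. At 2 h, 3 of the 10 members passed (Pros1 higher, Trem2 and Fcgr2b lower), where 12.5% of all genes passed. At 6 h, 7 of 10 passed, 5 of them higher and 2 lower, where 27.7% of all genes passed. With sham libraries 5 and 6 alone that count was 2 (Pros1 higher and Fcgr2b lower), where 2.89% of all genes passed. At 1 day Axl, Gas6 and Pros1 rose and none fell, 3 of 10 where 6.77% of all genes passed. After 1 week Gas6 was higher and Axl lower, 2 of 10 where 5.41% of all genes passed. The median difference of the 10 members was -0.003 at 2 h, 0.48 at 6 h, -0.08 at 1 day and 0.15 at 1 week, beside -0.03, 0.06, 0.01 and 0.07 for all genes tested.

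**Figure D2:**
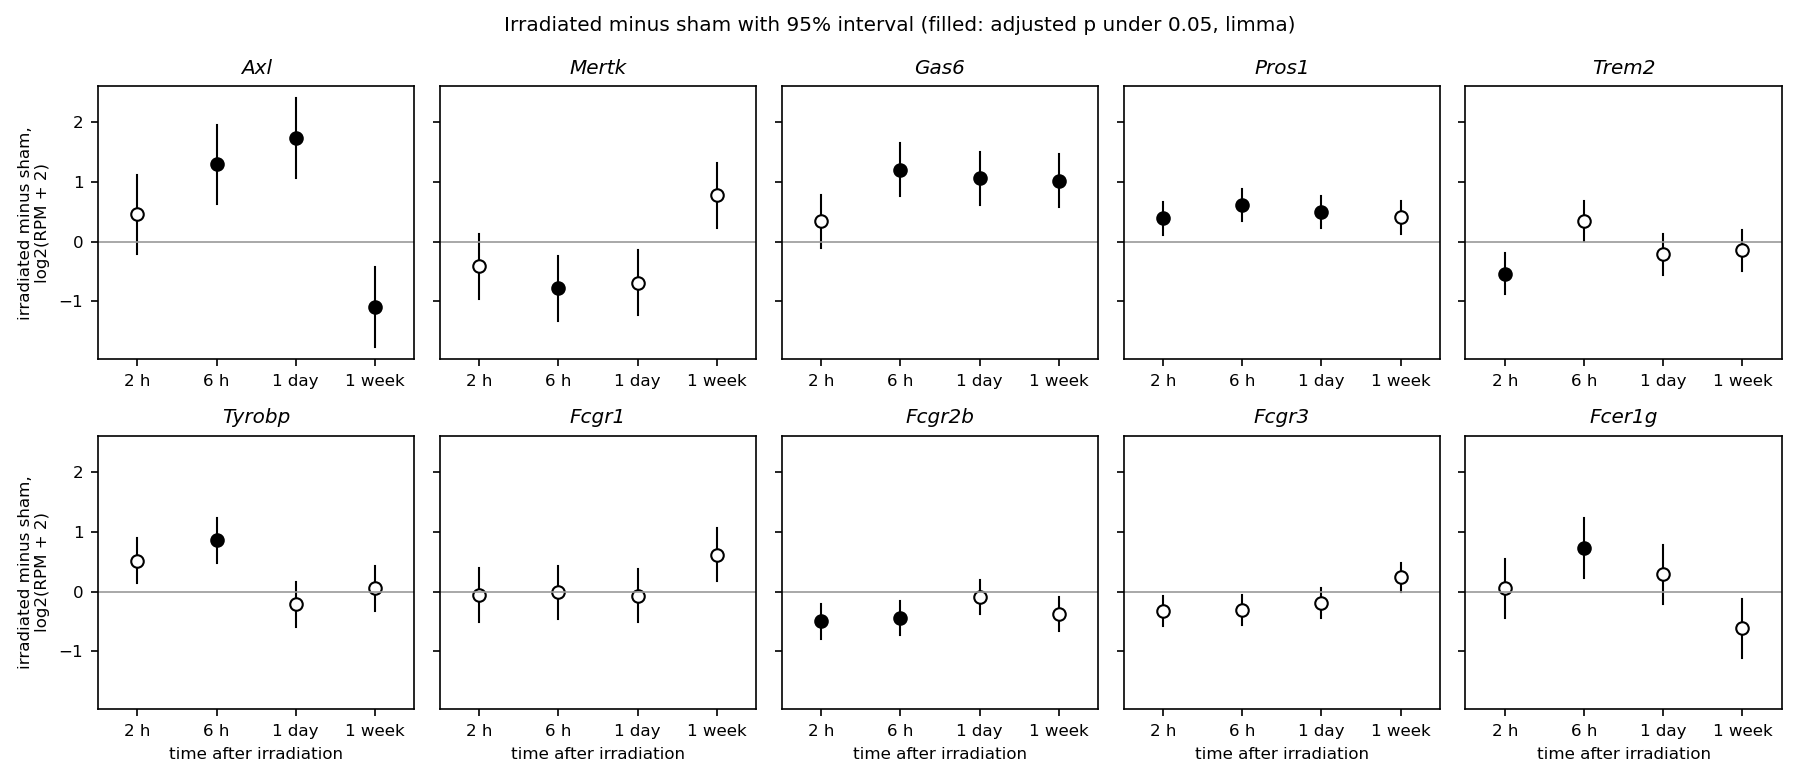
Irradiated minus sham difference of each gene on the log2(RPM + 2) scale against time after irradiation; points are limma estimates from 6 against 6 libraries, bars their 95% intervals, and filled points have an adjusted p under 0.05. Axl goes from 1.74 at 1 day to -1.10 at 1 week while Mertk goes from -0.69 to 0.78, and Gas6 stays between 1.02 and 1.21 from 6 h to 1 week.

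Axl (ENSMUSG00000002602, GRCm38 chromosome 7, 25757273 to 25788705, minus strand) rose after irradiation and later fell below the sham level. At 2 h its lowest, median and highest levels were 10.98, 14.3 and 24.8 RPM in sham and 14.1, 20.0 and 54.0 RPM in irradiated libraries. The groups overlapped, with irradiated library 1 far above the rest, and the difference of 0.46 ± 0.33 did not pass (adjusted p = 0.431). By 6 h the sham values were 9.36, 21.5 and 35.8 RPM and the irradiated ones 45.8, 53.3 and 58.1 RPM. Every irradiated library lay above every sham library, a 2.46-fold rise of 1.30 ± 0.33 (adjusted p = 0.00267). Against sham libraries 5 and 6 alone (23.8 and 23.9 RPM) the difference was 1.06 ± 0.46 and did not pass (adjusted p = 0.319). The highest levels came at 1 day, with 55.9, 73.0 and 103 RPM in irradiated libraries against 13.4, 17.45 and 39.9 RPM in sham. These groups did not overlap either, and the rise was 3.33-fold (1.74 ± 0.33, adjusted p = 0.000229).

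One week after irradiation the order of the groups for Axl had turned. Sham libraries held 14.8, 23.2 and 35.7 RPM (lowest, median and highest), whereas irradiated libraries held 3.19, 8.06 and 50.7 RPM. In irradiated animals 5 of 6 libraries, with 3.19 to 11.4 RPM or 8 to 32 reads, lay below every sham library, and library 1, with 115 reads, lay above every one. The difference of -1.10 ± 0.33 passed (adjusted p = 0.0389). It was -1.53 without library 1, and in 7 of the 12 fits that left out 1 library it no longer passed, at -0.86 in the smallest of them. The effect at 1 week differed from that at 1 day by -2.83 ± 0.47 (adjusted p = 8.23e-05), 1 of 2 members to pass in that comparison, where 7.31% of all genes passed. In the sham groups Axl did not differ over time by the F test (adjusted p = 0.603).

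Mertk (ENSMUSG00000014361, chromosome 2, 128698956 to 128802894, plus strand) ran the other way. Its sham libraries at 2 h held 650, 1479 and 1778 RPM (lowest, median and highest) and the irradiated ones 653, 977 and 1172 RPM, overlapping, with a difference of -0.42 ± 0.27 (adjusted p = 0.372). At 6 h sham libraries held 789, 1460 and 1895 RPM and irradiated libraries 535, 808 and 978 RPM. The irradiated libraries all lay below the sham median, although 4 of 6 lay within the sham range, and Mertk fell by 0.78 ± 0.27 (adjusted p = 0.0271). That call was lost in 5 of the 12 fits that left out 1 library (each of sham libraries 1 to 4, and irradiated library 4), with differences from -0.93 to -0.68 over the 12. The 2 lowest sham values at that time were those of libraries 5 and 6 (1005 and 789 RPM), and against them alone the difference was -0.22 ± 0.38 (adjusted p = 0.95). At 1 day the values were 354, 964 and 1151 RPM in sham and 201, 584 and 703 RPM in irradiated libraries, all below the sham median. This difference of -0.69 ± 0.27 did not pass (adjusted p = 0.13). The lowest sham value at 1 day belonged to the shallow library 6 with 62 Mertk reads. Without the 3 libraries under 1000000 reads the difference was -0.91 ± 0.27 and passed (adjusted p = 0.0296).

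After 1 week Mertk held 522, 881 and 1140 RPM in sham and 970, 1555 and 1904 RPM in irradiated libraries. Above every sham library lay 5 of the 6 irradiated libraries, with a 1.72-fold difference of 0.78 ± 0.27 that did not pass (adjusted p = 0.0802). Fitted on the 12 libraries of that time alone, it did (adjusted p = 0.0195). From 1 day to 1 week the effect of irradiation on Mertk changed by 1.47 ± 0.38 (adjusted p = 0.0132), the only member besides Axl to pass in that comparison. Between these times the difference of Axl went from above 0 to below 0, and that of Mertk from below 0 to above 0. Mertk passed at neither time in the fit of all 48 libraries. A pair of small predicted genes overlaps the Mertk locus, but neither had more than 10 reads in any library.

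The balance of the 2 receptors can be read from reads within a library, which needs no scaling between libraries. Axl reads per Mertk read were 0.00576 to 0.0303 in sham and 0.0549 to 0.0856 in irradiated libraries at 6 h, without overlap. At 1 day the ratio was 0.0140 to 0.113 in sham and 0.0951 to 0.514 in irradiated libraries, overlapping in 1 sham library, the shallow library 6. One week after irradiation it was 0.0199 to 0.0685 in sham and 0.00168 to 0.0301 in irradiated libraries. Its irradiated median of 0.00589 at 1 week lay below the sham median of 0.0244, whereas at 1 day the irradiated median of 0.122 lay above the sham median of 0.0220. These ratios are descriptions and were not tested.

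Gas6 (ENSMUSG00000031451, chromosome 8, 13465374 to 13494490, minus strand), the ligand shared by the TAM receptors, was higher in irradiated libraries from 6 h onwards. At 2 h sham libraries held 125.6, 181 and 195 RPM and irradiated libraries 128, 167 and 471 RPM. Irradiated libraries 5 and 6 stood apart, at 457.5 and 471 RPM against 128 to 177 RPM in the other 4, and the difference of 0.34 ± 0.22 did not pass (adjusted p = 0.372). By 6 h the sham values were 121, 201 and 347.5 RPM and the irradiated ones 420.5, 463 and 614 RPM, without overlap. The rise was 2.31-fold (1.21 ± 0.22, adjusted p = 3.96e-05). Here too sham libraries 5 and 6 were the highest of their group (347.5 and 318 RPM), and against them alone the difference was 0.55 ± 0.28 (adjusted p = 0.48).

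The 1 day and 1 week groups of Gas6 did not overlap. Sham libraries at 1 day held 261, 286 and 334 RPM and irradiated libraries 531.5, 605 and 675 RPM, a 2.09-fold rise of 1.06 ± 0.22 (adjusted p = 0.000771). At 1 week the values were 227, 241 and 299.8 RPM in sham and 422, 496 and 695 RPM in irradiated libraries. This rise was 2.03-fold (1.02 ± 0.22, adjusted p = 0.00343). Gas6 was the one member that passed at 6 h, 1 day and 1 week with sham and irradiated libraries apart at each of them. The neighbouring gene Tmem255b overlaps Gas6 on the other strand and had at most 10 reads in any library.

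Pros1 (ENSMUSG00000022912, chromosome 16, 62854307 to 62929346, plus strand), the gene of protein S, passed at 2 h, 6 h and 1 day. At 2 h its sham libraries held 144.5, 226 and 276 RPM and its irradiated libraries 252, 276 and 299 RPM. All 6 irradiated libraries lay above the sham median and 3 above every sham library, a rise of 0.39 ± 0.14 (adjusted p = 0.0468). That call lay close to the threshold and was lost in 8 of the 12 fits that left out 1 library. At 6 h the sham values were 175, 219.9 and 277 RPM and the irradiated ones 289.8, 339 and 362 RPM, without overlap (0.62 ± 0.14, adjusted p = 0.000538). Sham libraries 5 and 6 had the lowest Pros1 levels of their group, and against them alone the rise was 0.88 ± 0.19 (adjusted p = 0.00196). For 1 day the values were 184, 199.8 and 207 RPM in sham and 208, 296 and 333 RPM in irradiated libraries, again apart (0.50 ± 0.14, adjusted p = 0.015). At 1 week they were 175, 221 and 234 RPM in sham and 219, 274 and 397 RPM in irradiated libraries, with 5 of 6 irradiated libraries above every sham library and a difference of 0.41 ± 0.14 that did not pass (adjusted p = 0.063). Sham levels of Pros1 did not differ over time by the F test (adjusted p = 0.871).

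Both ligands and Mertk are also expressed by astrocytes and border macrophages, so the markers of those cells are given beside them. The 12 astrocyte markers summed to 247 to 449 RPM in sham and 660 to 969 RPM in irradiated libraries at 2 h, almost all of it from the glutamate transporter Slc1a3 (207 to 417.5 RPM against 634 to 947 RPM). The defining astrocyte genes Gfap and Aqp4 were at most 4.17 and 3.26 RPM in these libraries. At 6 h, when both ligands rose and Mertk fell, the astrocyte sum was 301.5 to 353 RPM in sham and 374 to 524 RPM in irradiated libraries, again without overlap. Slc1a3 held 258 to 327 RPM and 320 to 473 RPM of it, the transporter Slc1a2 had medians of 14.4 and 27.7 RPM, and Gfap and Aqp4 were at most 5.85 and 3.42 RPM. At 1 day and 1 week the astrocyte sums of the groups overlapped. The 12 markers of perivascular and border macrophages summed to 614 to 933 RPM in sham and 1032 to 1438 RPM in irradiated libraries at 1 week. Of that sum Stab1 made up 508 to 868.5 RPM and 906 to 1324 RPM, and Mrc1, the mannose receptor and next most abundant of the list, held 40.5 to 78.6 RPM (median 69.6) and 62.7 to 108.9 RPM (median 87.0). The other 10 had medians of at most 6.99 RPM in both groups, among them the defining genes Lyve1 (4.68 and 2.42 RPM), Cd163 (3.20 and 1.04 RPM) and Pf4 (5.65 and 2.15 RPM). At 6 h the border macrophage sums overlapped, and Mrc1 held 82.4 to 155 RPM in sham and 16.6 to 48.1 RPM in irradiated libraries. Lyve1 and Pf4 were low and went the other way, with sham and irradiated medians of 2.76 and 6.71 RPM and of 2.63 and 9.47 RPM. Of the 12 markers 6 were tested at 6 h, and 1 rose and 1 fell (median difference 0.53), where 15.8% of all genes rose and 11.8% fell. The 14 microglia markers summed to 50200 to 57420 RPM in sham and 42490 to 46900 RPM in irradiated libraries at 6 h. With all 6 sham libraries 8 of the 14 fell and 2 rose at that time, where 11.8% of all genes fell and 15.8% rose. At 1 day the 14 microglia markers summed to 48760 to 57510 RPM in sham and to 33300 to 44610 RPM in irradiated libraries. Of these markers 8 fell and none rose, where 2.59% of all genes fell and 4.18% rose. The part of these shifts in the levels of Axl, Mertk, Gas6 and Pros1 was not tested.

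Trem2 (ENSMUSG00000023992, chromosome 17, 48346401 to 48354147, plus strand) fell at 2 h. Its lowest, median and highest sham levels were 277, 330 and 437 RPM, and its irradiated levels were 207, 225 and 255 RPM. Every irradiated library lay below every sham library (0.691-fold, -0.53 ± 0.17, adjusted p = 0.0272). The call was lost in 4 of the 12 fits that left out 1 library, with differences from -0.59 to -0.45, and with totals that leave out mitochondrial genes (adjusted p = 0.0605). Mitochondrial genes took 3.05% to 9.34% of the reads in sham and 6.14% to 14.6% in irradiated libraries at 2 h. At 6 h the sham values spread from 277 to 783 RPM with a median of 408, and the irradiated ones lay within that range at 488, 552 and 639 RPM (0.35 ± 0.17, adjusted p = 0.122). Sham libraries 1 to 4 held 277 to 445.5 RPM and libraries 5 and 6 held 783 and 669 RPM. Against the first 4 the difference was 0.71 ± 0.15 (adjusted p = 0.000263), and against the last 2 it was -0.37 ± 0.19 (adjusted p = 0.46).

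At the later times Trem2 did not pass. The values at 1 day were 359, 611 and 757 RPM in sham and 379, 536 and 607 RPM in irradiated libraries (-0.21 ± 0.17, adjusted p = 0.541). One week after irradiation they were 542, 605 and 739 RPM and 477, 551 and 633 RPM (-0.15 ± 0.17, adjusted p = 0.668). The 95% interval of that last difference ran from -0.49 to 0.19. The change of the effect from 2 h to 6 h, 0.88 ± 0.24, passed (adjusted p = 0.011), the only member to do so in a comparison where 13.3% of all genes passed. With sham 6 h libraries 5 and 6 alone no member passed it, where 0.896% of all genes did, and with libraries 1 to 4 alone 3 did, where 24.5% of all genes did.

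Tyrobp (ENSMUSG00000030579, chromosome 7, 30413760 to 30417585, plus strand), the adaptor that Trem2 needs for signalling, did not fall with its receptor at 2 h. Sham libraries held 228, 254 and 307 RPM and irradiated libraries 309, 373 and 439.7 RPM. All 6 irradiated libraries lay above every sham library, yet the difference of 0.51 ± 0.19 did not pass with the shared spread of 8 groups (adjusted p = 0.0623). It did pass with the 12 libraries of 2 h alone (adjusted p = 0.0189) and with median-of-ratios scaling (0.54, adjusted p = 0.0286). At 6 h sham libraries held 289.6, 422 and 674.5 RPM and irradiated libraries 648, 812 and 937 RPM, 5 of them above every sham library. This 1.82-fold rise (0.86 ± 0.19, adjusted p = 0.000484) came to 0.28 ± 0.24 against sham libraries 5 and 6 alone (adjusted p = 0.808), which held 674.5 and 641 RPM.

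At the later times Tyrobp did not pass. Its values at 1 day were 354, 672 and 867 RPM in sham and 349, 606 and 708 RPM in irradiated libraries (-0.21 ± 0.19, adjusted p = 0.592, 95% interval -0.59 to 0.17). At 1 week they were 456.5, 563 and 695 RPM and 448, 585 and 759.6 RPM (0.06 ± 0.19, adjusted p = 0.899). From 6 h to 1 day the effect changed by -1.07 ± 0.27 (adjusted p = 0.0116), the single member that passed where 6.61% of all genes did. No member passed that comparison with sham 6 h libraries 5 and 6 alone, where 0.221% of all genes did.

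Receptor and adaptor were set against each other as reads of Trem2 per read of Tyrobp. At 2 h the ratio was 1.14 to 1.43 in sham and 0.534 to 0.704 in irradiated libraries, so that each sham library had more Trem2 than Tyrobp reads and each irradiated library fewer. At 6 h it was 0.676 to 1.28 in sham and 0.574 to 0.956 in irradiated libraries. The ranges at 1 day were 0.873 to 1.13 and 0.845 to 1.19, and at 1 week 0.929 to 1.20 and 0.742 to 1.20. The groups were apart at 2 h and overlapped at the other 3 times. Across the 48 libraries the levels of Trem2 and Tyrobp had a Pearson r of 0.78, and their deviations from the group means one of 0.79; these libraries share the 8 groups, their depth and the 6 h structure.

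**Figure D3:**
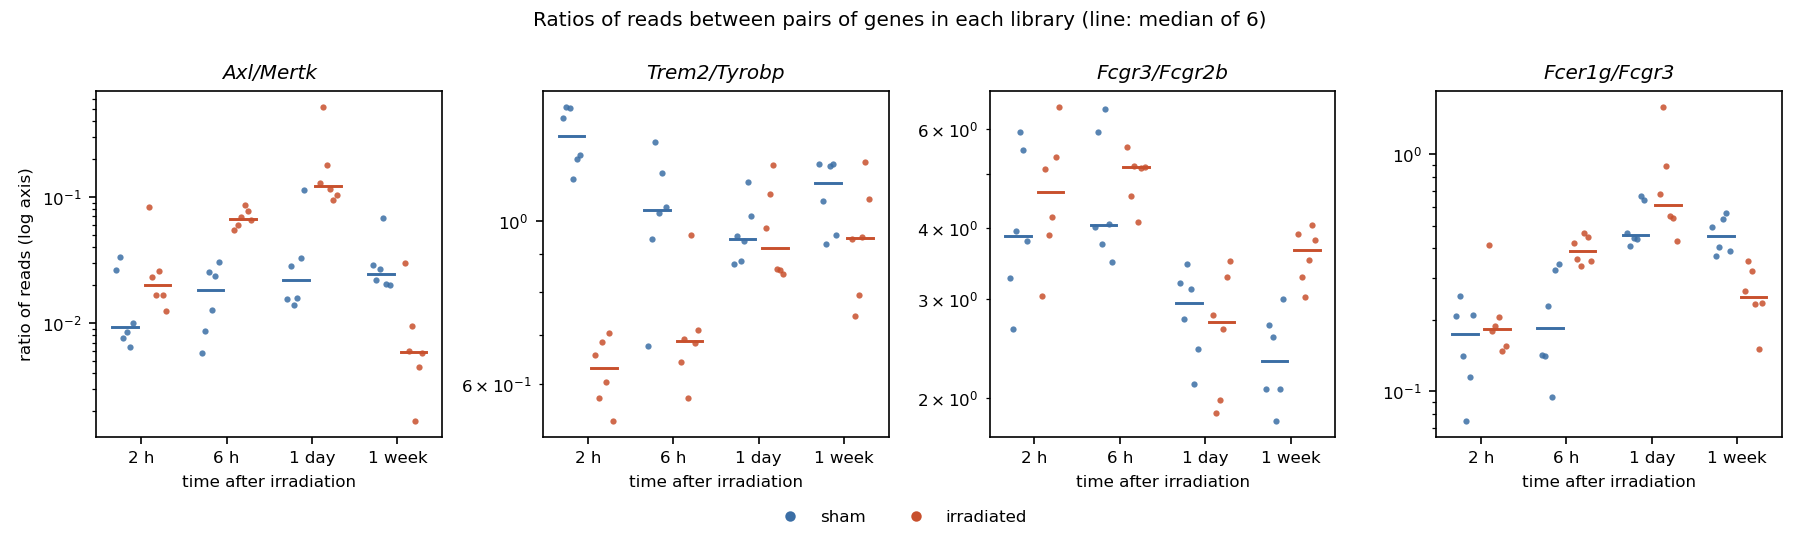
Reads of one gene divided by reads of another within each library (log axis), by time after irradiation, for Axl/Mertk, Trem2/Tyrobp, Fcgr3/Fcgr2b and Fcer1g/Fcgr3; points are animals, lines group medians of 6. Trem2/Tyrobp is below 0.71 in every irradiated library at 2 h and above 1.13 in every sham library, and Axl/Mertk is above the sham range at 6 h and mostly below it at 1 week.

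Of the activating receptors, Fcgr1 (ENSMUSG00000015947, chromosome 3, 96282909 to 96293969, minus strand), the high-affinity receptor for IgG, passed at no time. Sham and irradiated levels were 481, 542 and 605 RPM against 366, 432 and 1143 RPM at 2 h (-0.06 ± 0.22, adjusted p = 0.913). They were 533, 688 and 762 RPM against 518, 641 and 878 RPM at 6 h (-0.01 ± 0.22, adjusted p = 0.974). Sham libraries 5 and 6 held 761 and 762 RPM at 6 h, and Fcgr1 did not pass against them alone. Irradiated library 4 held the single high value at 2 h, and 4 of the other libraries lay below every sham library. At 1 day the spread was wider, with 479, 788 and 1006 RPM in sham and 353, 766 and 1210 RPM in irradiated libraries (-0.07 ± 0.22, adjusted p = 0.903). At 1 week sham libraries held 477, 760 and 945 RPM, and irradiated libraries held 1009, 1048 and 1545 RPM. Every irradiated library lay above every sham library, a 1.54-fold difference of 0.62 ± 0.22 (adjusted p = 0.0926). It passed with the 12 libraries of 1 week alone (adjusted p = 0.0223) and with precision weights (adjusted p = 0.0356).

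Fcgr3 (ENSMUSG00000059498, chromosome 1, 171051174 to 171064935, minus strand), the activating receptor of lower affinity, ranged from 510 to 1244 RPM over all 48 libraries. It was lower in irradiated libraries at the first 2 times without passing: 831, 957 and 1244 RPM in sham against 510, 805 and 1035 RPM at 2 h (-0.33 ± 0.12, adjusted p = 0.0745). At 6 h the values were 721, 1137 and 1242 RPM against 754, 847.5 and 895 RPM (-0.32 ± 0.12, adjusted p = 0.0518), all irradiated libraries below the sham median. This 6 h difference passed under 2 other scalings, at -0.35 with median-of-ratios factors (adjusted p = 0.0336) and -0.35 without mitochondrial genes (adjusted p = 0.0345). Sham 6 h libraries 5 and 6 held 1139 and 1135 RPM, above every irradiated library of that time, and Fcgr3 did not pass against them alone. At 1 day the values were 881, 1072 and 1155 RPM against 800.4, 934 and 1045 RPM (-0.20 ± 0.12, adjusted p = 0.408). By 1 week the order had turned, with 924, 954.5 and 1083 RPM in sham and 1028, 1144 and 1226 RPM in irradiated libraries, 5 of 6 above every sham library (0.24 ± 0.12, adjusted p = 0.273).

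Fcgr2b (ENSMUSG00000026656, chromosome 1, 170958617 to 170976547, minus strand), the inhibitory receptor, was lower after irradiation at 2 h and 6 h. Sham libraries held 209.5, 232 and 359 RPM and irradiated libraries 149, 175 and 203 RPM at 2 h. The groups did not overlap, and the fall was 0.706-fold (-0.50 ± 0.14, adjusted p = 0.0123). Without sham library 2, the one at 359 RPM, the difference was -0.39 and did not pass (adjusted p = 0.0637). At 6 h they held 191, 212 and 325 RPM and 152, 170 and 192 RPM, 5 irradiated libraries below every sham library (-0.44 ± 0.14, adjusted p = 0.0173). Without sham library 6 this difference was -0.34 and did not pass (adjusted p = 0.0625). Against sham libraries 5 and 6 alone, which had the highest values of their group (280 and 325 RPM), the fall was larger, -0.83 ± 0.19 (adjusted p = 0.00468). Against libraries 1 to 4 alone it was -0.25 ± 0.15 and did not pass (adjusted p = 0.186). At 1 day the values were 316, 377 and 433 RPM in sham and 296, 326 and 477 RPM in irradiated libraries (-0.09 ± 0.14, adjusted p = 0.779). At 1 week they were 359, 403.5 and 517 RPM and 278, 307 and 385 RPM, with 4 irradiated libraries below every sham library (-0.38 ± 0.14, adjusted p = 0.117).

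Fcer1g (ENSMUSG00000058715, chromosome 1, 171229572 to 171234365, minus strand), the chain through which the activating receptors signal, passed at 6 h and at no other time. At 2 h sham libraries held 93.2, 155.5 and 239.5 RPM and irradiated libraries 135, 152 and 211 RPM, within the sham range (0.05 ± 0.25, adjusted p = 0.933). At 6 h sham libraries 1 to 4 held 117.5 to 164 RPM and libraries 5 and 6 held 368 and 390 RPM, while irradiated libraries held 278, 333 and 380 RPM. With all 6 sham libraries the difference was 0.73 ± 0.25 (adjusted p = 0.0228), and it no longer passed when any 1 of libraries 1 to 4 was left out (0.58 in the smallest of the 12 fits). With libraries 5 and 6 alone its sign turned, to -0.21 ± 0.30 (adjusted p = 0.931), so that the rise of Fcer1g at 6 h rested on sham libraries 1 to 4. At 1 day it held 435, 521 and 678.5 RPM in sham and 437, 595.5 and 1421 RPM in irradiated libraries, library 2 far above the rest (0.29 ± 0.25, adjusted p = 0.567). At 1 week the values were 359, 441 and 547 RPM and 170, 290 and 431 RPM, 4 irradiated libraries below every sham library (-0.62 ± 0.25, adjusted p = 0.138).

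At 1 week the members among the Fc gamma receptor genes stood in 2 groups, and none of them passed the test across all genes. The activating receptors Fcgr1 and Fcgr3 had differences above 0, and Fcgr2b and Fcer1g had differences below 0. Fcgr4, an activating receptor outside the members, also had a difference below 0 that did not pass (-0.43 ± 0.29, adjusted p = 0.409). Within libraries, reads of Fcgr1 per read of Fcgr2b were 0.922 to 2.597 in sham and 2.73 to 4.02 in irradiated libraries. Fcgr3 reads per Fcgr2b read were 1.82 to 2.99 and 3.02 to 4.06. Both ratios of an activating receptor to the inhibitory one were higher in every irradiated than in every sham library. The signalling chain went the other way, with 0.371 to 0.564 Fcer1g reads per Fcgr3 read in sham and 0.151 to 0.355 in irradiated libraries. At 1 day all 3 ratios overlapped between the groups. These ratios were not tested. At 1 week the share of reads on long genes was 24.2% to 26.6% in sham libraries (median 26.2%). In irradiated libraries it was 25.4% to 27.7% (median 26.9%), overlapping the sham range. Over deviations from the group means, Pearson r with that share was -0.62 for Fcgr2b and -0.77 for Fcer1g. It was 0.09 for Fcgr1 and 0.10 for Fcgr3. The part of that share in the split of these genes at 1 week was not tested.

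The Fc gamma receptor genes are close paralogs, and reads from stretches that Fcgr2b, Fcgr3 and Fcgr4 share may have been assigned to either or left out, which makes their values uncertain. Fcgr4, the remaining activating receptor, was low, with 1 to 142 reads per library. It held 8.79, 16.7 and 25.5 RPM in sham and 23.3, 33.3 and 61.6 RPM in irradiated libraries at 1 day, a rise of 1.00 ± 0.29 (adjusted p = 0.0245). Its effect at 1 week differed from that at 1 day by -1.44 ± 0.41 (adjusted p = 0.0244), with 13.2 to 23.3 RPM in sham and 8.84 to 13.6 RPM in irradiated libraries at 1 week.

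**Figure D4:**
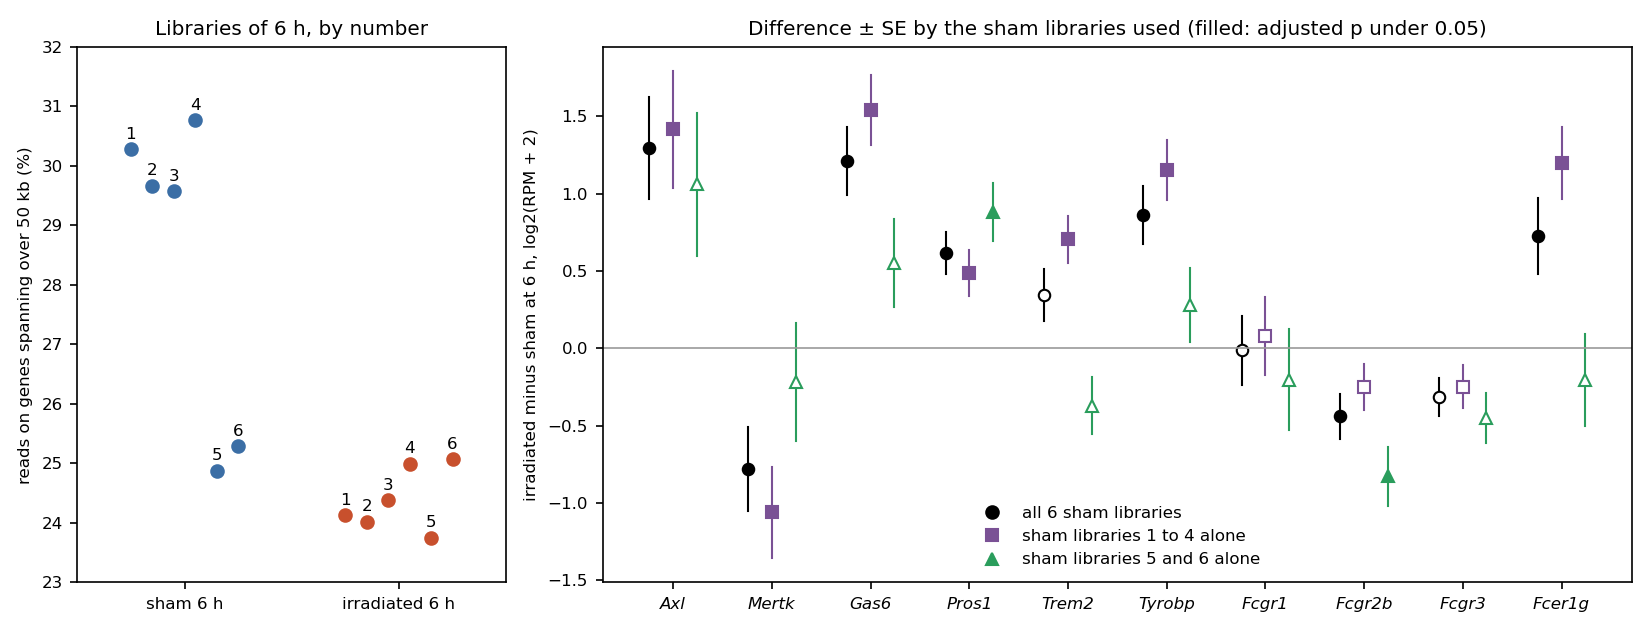
Left, percent of reads on genes spanning over 50 kb (50000 bases) in each library of 6 h, numbered as in the labels; right, irradiated minus sham difference at 6 h ± SE on log2(RPM + 2) for the 10 genes with all 6 sham libraries, with libraries 1 to 4 alone and with libraries 5 and 6 alone (filled: adjusted p under 0.05). Sham libraries 1 to 4 lie at 29.6% to 30.8% and all other libraries of 6 h between 23.7% and 25.3%, and the differences of Trem2 and Fcer1g lie on opposite sides of 0 for the 2 sets.

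The share of reads on long genes moved with several members inside the groups. Over the deviations of the 48 libraries from their group means, Pearson r with that share was 0.69 for Pros1 and 0.64 for Mertk, which span 75040 and 103939 bases. It was -0.77 for Fcer1g, -0.62 for Fcgr2b and -0.39 for Trem2, which span 4794, 17931 and 7747 bases. For Axl, Gas6, Tyrobp, Fcgr1 and Fcgr3 it lay between -0.17 and 0.10. In an alternative added after the data were seen, a trend in gene span and GC content was removed from each library. Axl (1.10 ± 0.33, adjusted p = 0.0144), Gas6 (0.89 ± 0.21, adjusted p = 0.00139) and Pros1 (1.05 ± 0.12, adjusted p = 2.43e-09) then still rose at 6 h with all 6 sham libraries, where 19.6% of the 9474 genes with a GC value passed. Mertk (-0.51), Tyrobp (0.41), Fcgr2b (-0.30) and Fcer1g (0.45) no longer passed, and Fcgr3 did (-0.37, adjusted p = 0.0264). What made the sham 6 h libraries differ was not tested.

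Sham levels differed over the 4 times for 6 of the 10 members by the F test (Mertk, Gas6, Trem2, Tyrobp, Fcgr2b and Fcer1g), where 27% of all genes passed. Each adjusted p in this paragraph is that of the F test over all 4 sham groups. The differences between single pairs of sham times are descriptions and were not tested. Fcer1g had the smallest adjusted p of the members, with sham medians of 155.5, 163, 521 and 441 RPM at 2 h, 6 h, 1 day and 1 week (adjusted p = 2.6e-07). Tyrobp rose from a sham median of 254 RPM at 2 h to 672 RPM at 1 day (1.23 between the group means, adjusted p = 4.67e-06). Fcgr2b was 0.75 higher at 1 week than at 2 h (adjusted p = 5.59e-06) and Trem2 0.87 higher (adjusted p = 0.000184). For Mertk the sham level at 1 day minus that at 2 h was -0.73 (adjusted p = 0.0357). Sham Gas6 was 0.74 higher at 1 day than at 2 h (adjusted p = 0.039). A level in irradiated animals is therefore read here against the sham group of the same time only.

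The genes most like each member over the 48 libraries, by Pearson r on the log2 scale, are given as a description of libraries that share groups, depth and preparation. Axl was most like Rsad2 (0.75), Sp100 (0.74) and Ctsb (0.74), but the r of the deviations from the group means was 0.39, 0.46 and 0.07. Mertk was most like Vav1 (0.91), Kif21b (0.90) and Rapgef5 (0.89), and deviations gave 0.92, 0.83 and 0.79. Gas6 was nearest to Laptm5 (0.85), Slamf9 (0.80) and Acvrl1 (0.79). Pros1 was nearest to Matn1 (0.76), Sulf2 (0.75) and Ccng1 (0.74), with deviations between -0.08 and 0.15. Trem2 was nearest to Mcrs1 (0.88), Ctsd (0.87) and Atraid (0.86), and Tyrobp to Grina, Ly6e and Actb (0.88 each). Fcgr1 was nearest to Scamp5 (0.78), Gpsm3 (0.71) and Pld4 (0.70), Fcgr2b to Atp8a1 (0.84), Dock1 and Mfap3 (0.83 each), and Fcgr3 to Rnase4 (0.69), Mapk3 (0.68) and Fads1 (0.66). The highest value of all was that of Fcer1g with Ppp1ca (0.94), followed by Cmtm3 and Tomm22 (0.93 each). Among the members themselves Fcer1g and Fcgr2b had an r of 0.71, Mertk and Fcer1g of -0.74, and Axl and Mertk of -0.67 (deviations 0.80, -0.77 and -0.34).

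The other genes of these pathways were followed as lists. Counts in every list that follows stand beside the same shares over all 9482 genes tested. Of those genes 6.14% rose and 6.33% fell at 2 h, and 15.8% rose and 11.8% fell at 6 h. At 1 day 4.18% rose and 2.59% fell, and at 1 week 2.94% rose and 2.47% fell. No list was tested as a set. Of 30 other receptors for dying cells and particles 21 were tested, and 1 rose and 2 fell at 2 h, 7 and 2 at 6 h, 3 and 1 at 1 day, and 2 and 4 at 1 week. Lrp1, a large scavenger and signalling receptor, rose at 6 h (1.09 ± 0.15, adjusted p = 1.69e-07), 1 day (0.84 ± 0.15, adjusted p = 6.07e-05) and 1 week (0.62 ± 0.15, adjusted p = 0.00877), the times at which Gas6 did. Cd300lb, an activating receptor that pairs with Tyrobp, rose at 6 h (1.20 ± 0.34, adjusted p = 0.00665) and 1 day (2.06 ± 0.34, adjusted p = 2.09e-05) and was lower at 1 week (-1.17 ± 0.34, adjusted p = 0.0309), as Axl was. Msr1, the class A scavenger receptor, rose at 1 day (2.76 ± 0.41, adjusted p = 2.47e-06). Cd47, the signal that restrains engulfment, fell at 6 h (-0.86 ± 0.14, adjusted p = 8.73e-06). The list's median difference was 0.13, 0.28, -0.08 and 0.08 at the 4 times.

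Among 12 other Fc receptors 5 were tested, and none passed at 2 h, 2 fell at 6 h, 1 rose at 1 day and 1 rose at 1 week (medians -0.24, -0.06, -0.19 and 0.05). Fcrls, an Fc receptor-like protein of microglia, fell at 6 h (-0.83 ± 0.17, adjusted p = 0.000138) and was higher at 1 week (0.72 ± 0.17, adjusted p = 0.00552). Fcrl1 fell at 6 h as well (-1.45 ± 0.29, adjusted p = 0.000218). Of 14 other genes of the TREM family, its partners and its shedding 8 were tested, and 1, 0, 1 and 1 rose and 0, 1, 1 and 0 fell at the 4 times. Siglech, a lectin of microglia that signals through Tyrobp, fell at 6 h (-0.54 ± 0.11, adjusted p = 0.000303) and 1 day (-1.13 ± 0.11, adjusted p = 1.39e-10). Clec5a, another partner of Tyrobp, rose at 2 h (0.80 ± 0.26, adjusted p = 0.0314), and Ms4a6d rose at 1 day (1.00 ± 0.18, adjusted p = 6.36e-05) and 1 week (0.67 ± 0.18, adjusted p = 0.0176).

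Downstream of the receptors, 30 of 32 genes of ITAM and ITIM signalling were tested, and 2, 6, 1 and 0 rose and 4, 4, 2 and 2 fell at 2 h, 6 h, 1 day and 1 week (medians -0.13, 0.15, -0.19 and 0.13). Fyn, a Src family kinase, rose at 6 h (1.16 ± 0.25, adjusted p = 0.000355) and 1 day (1.11 ± 0.25, adjusted p = 0.00174), and its effect at 1 week differed from that at 1 day by -1.37 ± 0.35 (adjusted p = 0.0108). Nfatc1, a transcription factor activated by calcium signals, fell at 2 h (-0.98 ± 0.15, adjusted p = 1.52e-06), when Trem2 and Fcgr2b also fell. Pik3cd rose (0.85 ± 0.16, adjusted p = 7.42e-05) and Bcl10 fell (-0.72 ± 0.15, adjusted p = 0.000292) at 6 h. Of 35 genes of the engulfment and phagosome machinery 34 were tested, and 2, 4, 2 and 1 rose and 4, 9, 0 and 3 fell (medians -0.12, -0.14, 0.08 and 0.12). Coro1a, an actin regulator of phagocytic cups, fell at 2 h (-1.10 ± 0.17, adjusted p = 3.32e-06) and was higher at 6 h (0.53 ± 0.17, adjusted p = 0.0164). Dock8 fell at 2 h (-0.64 ± 0.19, adjusted p = 0.0149) and 6 h (-1.01 ± 0.19, adjusted p = 4.09e-05) and was higher at 1 week (0.68 ± 0.19, adjusted p = 0.0202), and Nckap1l fell at the same early times (-0.51 and -0.97). The subunit Arpc1b of the actin-nucleating Arp2/3 complex rose at 6 h (1.22 ± 0.22, adjusted p = 3.97e-05). The calls at 6 h in these lists use all 6 sham libraries.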

How the data were processed

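RNA was measured in 48 libraries of sorted hippocampal microglia, 8 groups of 6 animals. The submitters' processing notes name featureCounts 1.5.1, STAR 2.6.1d, FastQC 0.11.8 and bcl2fastq 2.20.0 and the builds mm10 and GRCm38. The annotation, strand setting and treatment of shared reads are not given in the sources used here. The authors deposited RPKM per gene. Tested on the file, all 719081 non-zero values are whole read numbers (tolerance 0.001 reads) divided by the gene span, introns included, and by the total of a library that was its own for 2.05% of values only. Reads were recovered by undoing this division, which gave whole reads for 100% of values, and were checked on simulated data (99.99% recovered). Deposited over recomputed values gave ratios of 0.436 to 3.11 (5th to 95th percentile). Recovered reads were scaled to reads per 1000000 reads (RPM) of the own library.

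Genes with at least 10 RPM in at least 6 libraries (9482) were fitted with limma 3.58.1 (trend, robust) in R 4.3.3 on log2(RPM + 2), 8 group means, 40 residual degrees of freedom, two-sided. The scale was set to RPM because a filter or pseudocount on RPKM weighs on long genes such as Mertk. Python 3.11.15 was used for recovery and figures. RefSeq promoter windows and GENCODE exons are on GRCm38.

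The members and gene lists were chosen with earlier results of these data known. All 10 members are named, up to 4 genes of each pathway list by smallest adjusted p, and the 3 genes most alike to each member. Alternatives covered the pseudocount, the filter, the scale, the scaling, precision weights, shallow libraries, the sham 6 h libraries, each library left out, and a replicate block. Replicate numbers in the labels did not pair sham and irradiated libraries (24 pairs, r of deviations -0.20 to 0.19, 3 over 0.1).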

Additional observations from a re-analysis of the deposited data

Results flagged for a closer look

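In a group of 6 libraries a value can stand apart from the other 5. With normally distributed values this happens by chance in about 1 of 20 groups. Of the 80 groups of member and condition checked, 8 held such a library, each time the highest of its group. The check used RPM without logarithm, and the members share the same 48 libraries, so the rate of 1 in 20 need not hold here. Axl stood apart in irradiated 2 h library 1 (54.0 RPM, the others at most 25.02) and in irradiated 1 week library 1 (50.7 RPM, the others at most 11.4). Tyrobp stood apart in sham 2 h library 3, at 307 RPM. Fcgr1 had a single high library in the irradiated groups of 2 h (library 4, 1143 RPM) and 1 week (library 3, 1545 RPM). Fcgr2b was high in sham 2 h library 2 (359 RPM), Fcgr3 in sham 1 week library 6 (1083 RPM) and Fcer1g in irradiated 1 day library 2 (1421 RPM). In that last library genes spanning over 50000 bases took 22.8% of the reads, the lowest of the 48 libraries, and Mertk was at 200.7 RPM, the lowest of its group.

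The effect of irradiation differed between adjacent times for 4 members, by limma's test of the difference. It was 0.88 larger at 6 h than at 2 h for Trem2. For Tyrobp the change from 6 h to 1 day was -1.07. Both rest on the sham 6 h group and neither passed with its libraries 5 and 6 alone. Those fits had fewer sham libraries, and 0.896% and 0.221% of all genes passed in them. From 1 day to 1 week the effect changed by -2.83 for Axl and by 1.47 for Mertk.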

How the results depend on the processing

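Counts of members that passed were 3, 7, 3 and 2 at 2 h, 6 h, 1 day and 1 week, 1, 1 and 2 for the changes of the effect (2 h to 6 h, 6 h to 1 day, 1 day to 1 week) and 6 for the sham groups over time. All genes that passed were 1182, 2625, 642 and 513, then 1262, 627 and 693, then 2564. With the values exactly as deposited they were 0, 0, 1 and 0, then 0, 0 and 1, then 2, and all genes that passed were 52, 64, 39 and 11, then 3, 0 and 9. With sham 6 h libraries 5 and 6 alone 2 members passed at 6 h and 0 in each change that uses 6 h, Fcer1g turned to -0.21, and 274, 85 and 21 genes passed. With libraries 1 to 4 alone 3 members passed in each change that uses 6 h (2321 and 1685 genes). Removing the span and GC trend gave 5 members at 2 h and 4 at 6 h (1212 and 1853 genes). It gave 2 from 2 h to 6 h and 0 from 6 h to 1 day (806 and 214 genes). With sham 6 h libraries 5 and 6 alone as well it gave 2 at 6 h and 0 in each change that uses 6 h. All genes were then 281, 93 and 27, and Fcer1g at 6 h was -0.28. Without the filter 1 member passed at 2 h and 1 at 1 week (1014 and 257 genes, then 725, 279 and 356 for the changes). At 1 week 1 member passed with a pseudocount of 10 RPM or on log2(RPKM + 1) (542 and 359 genes). With precision weights 5 did (943 genes, and 1282 from 1 day to 1 week), and with the 12 libraries of that time alone 4 did (720 genes). Without the libraries under 1000000 reads 1145 genes passed from 1 day to 1 week. With irradiated 2 h libraries 1 to 4 alone, chosen after seeing the data, 2 members passed from 2 h to 6 h (882 genes). Leaving out 1 library gave 1 to 3 members at 2 h, 5 to 8 at 6 h, 3 to 4 at 1 day and 1 to 2 at 1 week. For all genes it gave 1004 to 1160, 2066 to 3036, 483 to 671 and 220 to 624 at these times. Members were 1 to 2 in each of the first 2 changes, 2 in the last and 4 to 6 in the sham groups. All genes were 880 to 1693 from 2 h to 6 h, 364 to 1026 from 6 h to 1 day and 463 to 1122 from 1 day to 1 week. Unless a value or the samples used show it, the cause of these shifts was not tested. With the replicate block 2, 8, 3 and 2 members passed at the 4 times (1143, 2539, 593 and 435 genes). Pros1 was lost at 2 h (adjusted p = 0.0528) and Fcgr3 gained at 6 h (adjusted p = 0.0459). Same-numbered libraries correlated best with their own number in 7 of 24 pairs. Depth limits Axl most, with 7 to 238 reads per library.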
